A study of Mus musculus with 81 samples.

Results

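T-cell receptor β chain (TCRβ) sequencing was used to compare the tumor with the blood of the same mouse in the control arm of a treatment experiment. The control arm received mRBC-CTRL, red blood cells that carry none of the study's added proteins. In all, 4 libraries of tumor and 4 of day 7 blood, from mice 2, 3, 4 and 5, gave 4 pairs, and these 8 libraries were chosen by group, day and mouse number from the 81 libraries of the series. The 81 libraries included no day 7 blood of control mouse 1. Its tumor thus stood outside the pairs and served only as a further tumor library.

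The recipients were female Pep Boy (CD45.1 B6) mice with EG7.OVA tumors in the flank. EG7.OVA is a variant of the EL4 T-cell lymphoma line that makes ovalbumin (OVA). All mice received 1e6 naïve OT-1 cells, CD8+ T cells from a transgenic mouse whose receptor recognizes the OVA peptide SIINFEKL, and then 1e9 mRBC-CTRL on days 0 and 3. Tumor and blood were taken on day 7, and day 0 blood was drawn minutes after OT-1 transfer. The treated arms of the same experiment received mRBC-OVA-4-1BBL-IL-12, red blood cells that present OVA peptide with 4-1BBL and IL-12, at 2.5e8 or 1e9 cells. Genomic DNA came from whole blood and from a part of the dissociated tumor, so CD4+ and CD8+ T cells were read together and the EG7.OVA cells were in the tumor libraries too.

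Each T cell clone carries a TCRβ gene made by joining a V, a D and a J segment, with bases trimmed and added at the joints. The joint encodes the CDR3, the loop that lies over the bound peptide. A nucleotide rearrangement found in more than 1 template was therefore taken to mark cells of 1 clone within a mouse. Some rearrangements were also found in several mice, and 1 CDR3 amino acid sequence can arise several times in different mice. A count of templates estimates how many cells carried a rearrangement, and a share of templates cannot tell more cells of a clone from fewer cells of the others.

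A pair of rearrangements set the frame of the comparison and is shown for that reason. The first is the most abundant OT-1 rearrangement, with TCRBV12-01, TCRBJ02-07 and the CDR3 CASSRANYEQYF, and all templates with this CDR3 were counted as OT-1. The second, with TCRBV15-01, TCRBJ02-03 and the CDR3 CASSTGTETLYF, was left out of all shares by the definition of the comparison. In the tumors of mice 2 to 5, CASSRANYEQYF came as 26, 27, 23 and 20 rearrangements and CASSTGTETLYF as 41, 45, 52 and 50. A count of rearrangements may thus exceed the count of clones. Capitals mark the CDR3 up to its last codon, which lies beyond the 87 bases given. The bases before the CDR3 are in lower case, and all run 5′ to 3′.
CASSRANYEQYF: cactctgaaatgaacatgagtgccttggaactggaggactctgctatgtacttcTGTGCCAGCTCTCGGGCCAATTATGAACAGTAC
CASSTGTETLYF: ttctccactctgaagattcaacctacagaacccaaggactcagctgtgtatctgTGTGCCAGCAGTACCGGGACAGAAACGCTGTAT

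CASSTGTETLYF held 63.2, 50.0, 73.4 and 79.4% of productive (in-frame) templates in the tumors of mice 2 to 5. It had 0 templates in all 4 libraries of day 7 blood. Tumor libraries held 51581 to 77041 productive templates, and day 7 blood libraries 5132 to 10940. Without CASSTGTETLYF and OT-1, the endogenous repertoire had 11484 to 23605 templates in tumor and 5002 to 10699 in blood. Tumors thus had 1.43 to 3.79 times as many endogenous templates as the blood of the same mouse, and clonality and the number of rearrangements were taken at equal depth. Counts of shared, called and tumor-only clones are at full depth unless stated. Day 0 blood of these mice had 2621 to 7304 endogenous templates, so 0 templates there does not show absence.

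OT-1 made up a far larger share of T-cell templates in the tumors than in the blood of the same mice on day 7. Its share of productive templates without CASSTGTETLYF was 39.5% in the tumor of mouse 2, 22.2% in mouse 3, 19.6% in mouse 4 and 25.6% in mouse 5. In day 7 blood the share was 7.58, 2.17, 2.20 and 2.53%. The lowest tumor value lay above the highest blood value, and the tumor of mouse 1 had 19.4%. The ratio of tumor to blood was 5.21, 10.3, 8.90 and 10.1, with a mean log2 ratio of 3.06 ± 0.46 (SD, n = 4 pairs), which is 8.33-fold. The exact sign-flip test over pairs gave p = 0.125, the smallest it can give with 4 pairs, and the unpaired exact permutation test gave p = 0.0286 (0.225 and 0.0514 after Benjamini-Hochberg adjustment over 9 measures). The lowest ratio belonged to mouse 2, whose blood held the most OT-1.

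The same tumors set against day 0 blood showed no such gap. Day 0 blood, drawn just after transfer, held 24.5, 23.4, 18.9 and 21.1% OT-1 in mice 2 to 5. The tumor over day 0 blood ratio averaged 1.18-fold and was above 1 in 3 of 4 mice (exact sign-flip p = 0.375). Between day 0 and day 7 the OT-1 share in blood was lower in 4 of 4 mice, as the plot of OT-1 share by sample shows. When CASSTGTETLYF was kept in the denominator, the tumor over day 7 blood ratios were 1.91, 5.14, 2.36 and 2.09 (exact sign-flip p = 0.125).

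**Figure D1:**
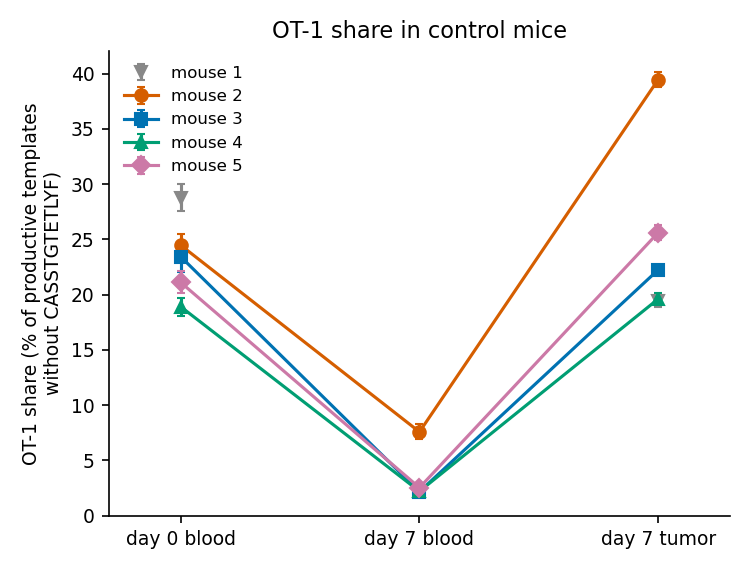
OT-1 share, in percent of productive templates without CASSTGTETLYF, in day 0 blood, day 7 blood and day 7 tumor of the control mice. Each color and symbol is a mouse, lines join the libraries of a mouse, and bars are 95% Wilson intervals (counting error only). The 4 tumors of the paired mice sit between 19.6 and 39.5% and their day 7 blood between 2.17 and 7.58%.

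Beyond OT-1, the endogenous T cells of the tumors were dominated by a few clones that the blood held at low share. Clonality, which is 0 when all rearrangements are equally frequent and 1 when a single one is left, was computed after reduction of each library to 5002 templates. It was 0.427, 0.286, 0.238 and 0.282 in the tumors of mice 2 to 5 and 0.0157, 0.0169, 0.0129 and 0.0235 in their blood. The tumor of mouse 1 had 0.320. The groups did not overlap, and tumor was higher in 4 of 4 mice by 0.291 ± 0.082 (SD, exact sign-flip p = 0.125, unpaired exact permutation p = 0.0286). The same 5002 templates held 1271, 1337, 1759 and 1381 different rearrangements in tumor and 3666, 3752, 4233 and 3473 in blood. The 10 largest rearrangements took 63.1, 44.9, 36.9 and 46.2% of endogenous templates in tumor and 2.98, 3.54, 2.87 and 5.18% in blood. Both measures separated tumor from blood in 4 of 4 mice (exact sign-flip p = 0.125 and unpaired exact permutation p = 0.0286 for each). As for OT-1, these unpaired values were 0.0514 after adjustment over the 9 measures.

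**Figure D2:**
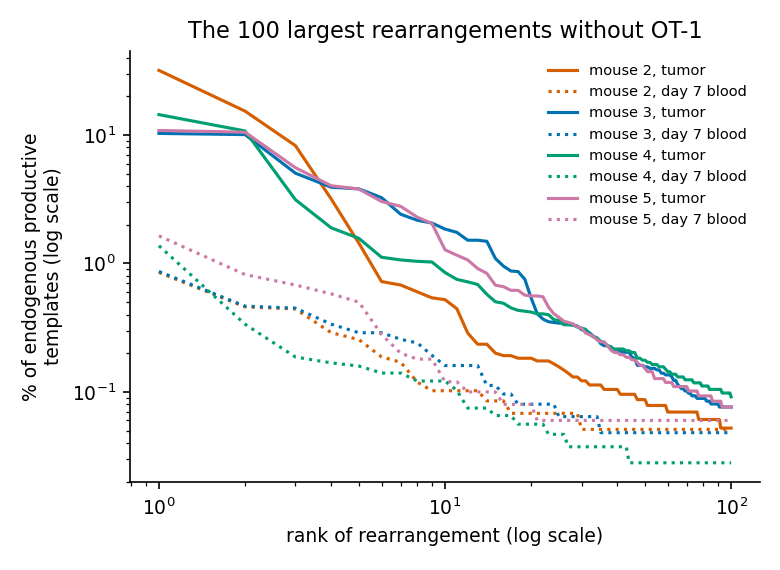
Share of endogenous productive templates (log scale) of the 100 largest rearrangements by rank (log scale) in tumor (solid) and day 7 blood (dotted) of each control mouse. The largest tumor rearrangements held 10.3 to 31.9% and the largest in blood 0.851 to 1.64%, and the tumor line lies above the blood line of the same mouse at all 100 ranks.

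The largest endogenous rearrangement differed from tumor to tumor. The 4 are shown because each led its tumor, with the CDR3 in capitals as before. Some clones are named by their V and J segments instead of the CDR3.
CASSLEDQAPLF, mouse 2: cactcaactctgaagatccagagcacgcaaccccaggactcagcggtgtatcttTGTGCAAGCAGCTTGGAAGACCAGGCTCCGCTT
TCRBV16-01 with TCRBJ02-07, mouse 3: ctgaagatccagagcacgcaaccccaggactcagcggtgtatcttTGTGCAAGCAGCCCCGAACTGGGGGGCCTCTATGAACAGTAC
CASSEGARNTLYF, mouse 4: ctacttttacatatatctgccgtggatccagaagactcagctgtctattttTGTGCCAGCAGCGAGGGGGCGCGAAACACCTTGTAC
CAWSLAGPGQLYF, mouse 5: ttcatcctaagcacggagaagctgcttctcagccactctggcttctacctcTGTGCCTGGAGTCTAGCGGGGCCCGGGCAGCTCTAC

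In mouse 2, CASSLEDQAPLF (TCRBV16-01, TCRBJ01-05) had 3659 tumor templates, 31.9% of the endogenous repertoire (95% Wilson interval 31 to 32.7%). It had 26 templates, 0.442%, in day 7 blood and 0 in day 0 blood, a 72-fold difference between tumor and day 7 blood. The next clones of that tumor were one of TCRBV15-01 and TCRBJ02-01, with 1762 tumor and 50 blood templates, and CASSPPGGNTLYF, with 949 and 5. These 3 clones had 0 templates in day 0 blood.

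In mouse 3, the leading clone, of TCRBV16-01 and TCRBJ02-07, had 2429 templates, 10.3%, in tumor and 29, 0.465%, in day 7 blood. A clone of TCRBV04-01 and TCRBJ02-07 was nearly as large in tumor, with 2378 templates against 28 in blood, and a clone of TCRBV04-01 and TCRBJ01-04 had 1191 against 54. The first pair differed 22.1-fold and 22.4-fold from blood, the last 5.83-fold.

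In mouse 4, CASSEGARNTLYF (TCRBV05-01, TCRBJ02-04) had 2206 templates, 14.4%, in tumor and 147, 1.37%, in day 7 blood, 10.5-fold apart. It was also the largest endogenous rearrangement in that blood and had 1 template in day 0 blood. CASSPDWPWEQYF followed with 1646 tumor, 36 day 7 blood and 2 day 0 blood templates, and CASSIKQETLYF with 480, 17 and 0.

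In mouse 5, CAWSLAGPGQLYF (TCRBV31-01, TCRBJ02-02) had 1282 templates, 10.8%, in tumor and 25, 0.5%, in day 7 blood. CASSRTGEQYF had 1244 tumor templates and 82 in blood, where it was the largest rearrangement, and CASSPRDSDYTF had 658 and 41. The 3 clones were 21.7-fold, 6.42-fold and 6.79-fold higher in tumor and had 0 templates in day 0 blood.

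The question of whether tumor and blood held the same clones was put to the nucleotide rearrangements. Tumor and day 7 blood of the same mouse shared 96 to 138 endogenous rearrangements, with 104 in mouse 2, 138 in mouse 4 and 96 in mouse 5. A tumor shared 2 to 13 with the blood of another control mouse, a mean of 6.83 over 12 such pairs against 118.5 ± 21.6 (SD, n = 4) within a mouse. The exact one-sided test over all 24 ways to pair tumors with bloods gave p = 0.0417, the smallest it can give. At equal depth the means were 72.9 within a mouse and 2.65 between mice. Counted as CDR3 amino acid sequences the gap was narrower, with 198 against 94.5.

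The shared rearrangements were few in number but held much of the tumor. They made up 4.41, 3.29, 3.54 and 3.78% of the endogenous rearrangements in tumor and 62.2, 59.0, 48.1 and 57.8% of its endogenous templates. In blood the same rearrangements held 5.85, 7.31, 5.14 and 8.16% of templates. Most of them were not large, with a median of 3 to 5 templates in tumor, and the share in tumor exceeded that in blood for 52, 60, 82 and 52 of them. Of the shared rearrangements, 3, 5, 3 and 5 were also found in the tumor or day 7 blood of another control mouse. Tumors also shared rearrangements with day 0 blood of the same mouse, a mean of 38.0 against 5.33 for other mice.

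Clone by clone, most calls were higher in tumor. Of 1049 rearrangements that reached 5 templates when tumor and day 7 blood of a mouse were added up, 343 (32.7%) were called higher in tumor and 14 (1.33%) lower, by Fisher's exact test with Benjamini-Hochberg adjustment within the mouse. Nearly all rearrangements seen only in blood fell below this minimum. The 2 counts therefore describe clones large enough to test, most of them through tumor templates, and not the direction over all clones. With no minimum of templates, every rearrangement of the 2 libraries was tested and adjusted for, a set far larger than the 1049. Then 172 were called higher and 3 lower, a far smaller share of those tested. This test compares the 2 libraries of a mouse and holds no spread between animals. The calls higher in tumor numbered 27 of 157 in mouse 2 (17.2%), 66 of 359 in mouse 3 (18.4%), 187 of 323 in mouse 4 (57.9%) and 63 of 210 in mouse 5 (30.0%). Mouse 4, which had the deepest blood library, gave more than all the others together, and without it the total was 156. Together the clones called higher held 65.8, 65.7, 62.1 and 63.4% of endogenous tumor templates and 1.74, 4.28, 3.41 and 5.94% of blood templates. The calls were made on these same shares, so the sums are a description.

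Of the 343, 103 had templates in day 7 blood and 240 had none, and 21 were found in day 0 blood of the mouse. The clones called lower in tumor numbered 1 in mouse 2 (0.637%), 5 in mouse 3 (1.39%), 7 in mouse 4 (2.17%) and 1 in mouse 5 (0.476%), and 11 of the 14 had no template in tumor. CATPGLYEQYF of mouse 3 had 16 templates, 0.257%, in blood and 22, 0.0932%, in tumor. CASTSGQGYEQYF of mouse 4 had 15 templates in blood and 0 in tumor, at least 7.15-fold lower against a floor of 3 templates. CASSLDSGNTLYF of mouse 5 had 6 and 0, and a clone of TCRBV01-01 and TCRBJ02-04 in mouse 2 had 6 in blood and 1 in tumor.

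**Figure D3:**
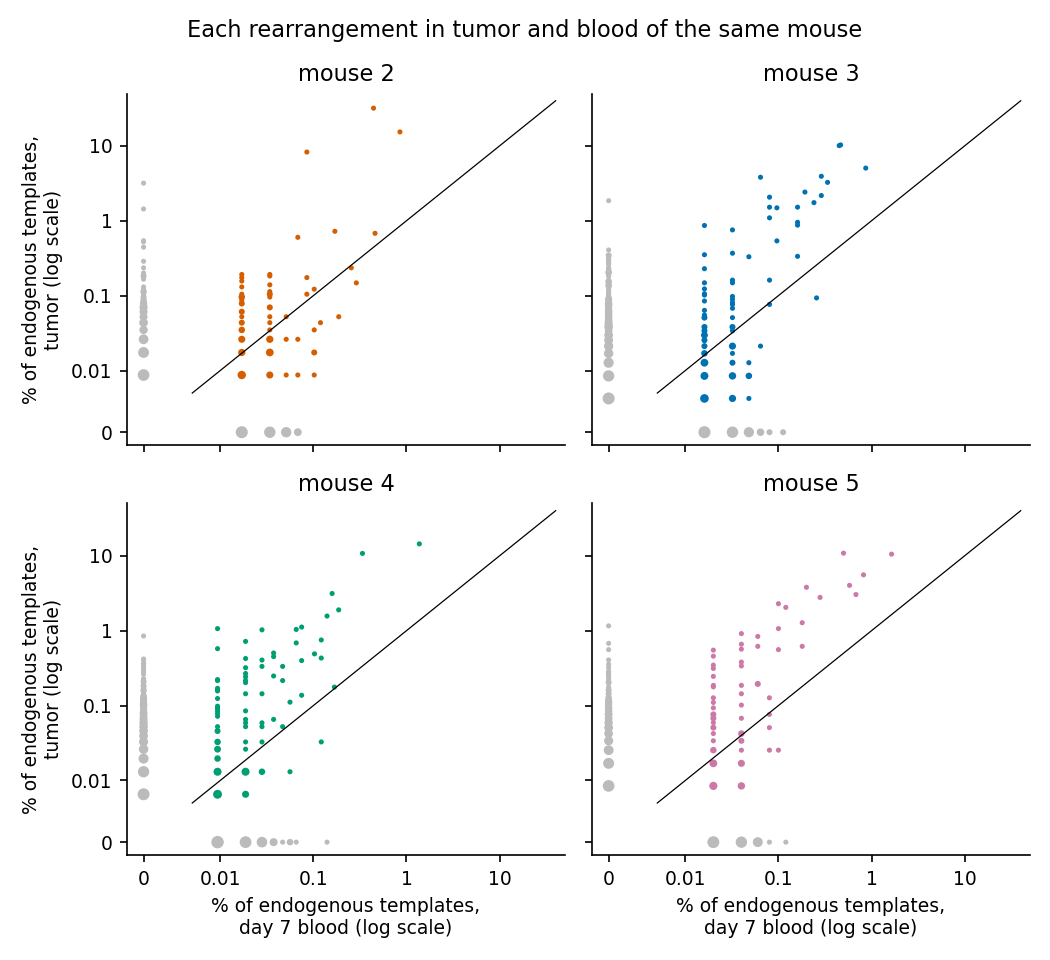
Share of endogenous productive templates of each rearrangement in day 7 blood (x axis, log scale) and in tumor (y axis, log scale) of the same control mouse, with 0 drawn at the edge of each axis. Colored points are rearrangements found in both libraries, grey points those found in 1, a larger point stands for more rearrangements at the same place, and the line marks equal shares. The rearrangements above 1% in tumor lie above the line in all 4 mice.

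Large tumor clones were defined as rearrangements with at least 0.2% of endogenous tumor templates, and numbered 15, 44, 46 and 40 in mice 2 to 5. Of these 145 clones, 87 were seen in day 7 blood and 58 were not. The clones seen in blood took 57.7, 56.0, 44.7 and 54.7% of tumor templates, with a median ratio of tumor to blood of 8.83, 13.1, 12.9 and 12.3. The clones without a blood template, 8, 20, 15 and 15 of them, took 6.84, 6.97, 4.96 and 5.66%. They were chosen by these values, so the shares are a description. A count of 0 in blood allowed a share of up to 0.0510, 0.0481, 0.0280 and 0.0600% in the 4 bloods, so absence from blood could not be shown at this depth.

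The tumor-only clones were smaller than the others, but a definition by 0 blood templates favors small clones, so this gap is no separate result. The median share of tumor templates was 0.483, 0.267, 0.307 and 0.279% for tumor-only clones. For the large clones seen in blood it was 0.723, 1.5, 0.451 and 0.837%. By share, the largest was a clone of TCRBV21-01 and TCRBJ01-05 in mouse 2, with 365 templates, 3.18% of the tumor (95% Wilson interval 2.87 to 3.52%), and at least 62.3-fold higher than in day 7 blood. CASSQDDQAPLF of mouse 3 had 437 templates, 1.85%, at least 38.5-fold higher than in blood. A clone of TCRBV13-02 and TCRBJ01-02 in mouse 4 had 130 templates, at least 30.3-fold higher, and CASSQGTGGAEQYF of mouse 5 had 137, at least 19.3-fold higher.

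The other tumor-only clones named by rule had 62 to 165 tumor templates. They were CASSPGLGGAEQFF and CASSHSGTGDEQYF in mouse 2, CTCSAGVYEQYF and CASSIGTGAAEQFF in mouse 3, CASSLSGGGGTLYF and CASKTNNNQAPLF in mouse 4, and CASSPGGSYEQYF and a clone of TCRBV13-02 and TCRBJ01-04 in mouse 5. Day 0 blood, which the definition did not use, held 4 of the 58, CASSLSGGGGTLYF with 1 template and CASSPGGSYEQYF with 2 among them, and 13 of all 145 large clones. No CDR3 was a tumor-only large clone in more than 1 mouse.

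Some CDR3 amino acid sequences were large in the tumors of 2 control mice, and these 4 were named after their values were seen. For 3 of them both mice used the same V and J segments with different nucleotide joints, and the rearrangements are printed to show where the DNA differs while the protein does not.
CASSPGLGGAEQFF, mouse 2: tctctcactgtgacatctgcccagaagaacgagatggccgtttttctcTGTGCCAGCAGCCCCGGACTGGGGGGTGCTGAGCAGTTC
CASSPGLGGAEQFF, mouse 4: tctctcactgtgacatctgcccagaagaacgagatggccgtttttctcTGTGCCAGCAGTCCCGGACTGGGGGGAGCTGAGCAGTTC
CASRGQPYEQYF, mouse 3: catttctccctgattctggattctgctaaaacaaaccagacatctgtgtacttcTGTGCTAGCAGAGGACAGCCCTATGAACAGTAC
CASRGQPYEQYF, mouse 5: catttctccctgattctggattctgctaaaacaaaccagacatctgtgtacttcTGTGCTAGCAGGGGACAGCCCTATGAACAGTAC
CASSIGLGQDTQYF, mouse 4: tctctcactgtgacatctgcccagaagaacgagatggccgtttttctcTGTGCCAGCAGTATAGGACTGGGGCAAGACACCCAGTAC
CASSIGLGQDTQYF, mouse 5: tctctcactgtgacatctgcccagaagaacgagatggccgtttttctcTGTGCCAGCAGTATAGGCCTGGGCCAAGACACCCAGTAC

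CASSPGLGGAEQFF (TCRBV19-01, TCRBJ02-01) had 165 templates in the tumor of mouse 2 and 163 in that of mouse 4, and 0 and 1 in their day 7 blood. The rearrangements of these mice differed at 2 bases. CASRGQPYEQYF (TCRBV29-01, TCRBJ02-07) had 225 tumor and 10 blood templates in mouse 3, and in mouse 5 it held 1.07% of tumor templates and had 5 in blood, with a difference of 1 base. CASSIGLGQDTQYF (TCRBV19-01, TCRBJ02-05) had 33 tumor templates in mouse 4 and 65 in mouse 5, with 1 blood template in each, and differed at 2 bases. The last, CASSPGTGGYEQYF, was large as 2 rearrangements in mouse 3, with TCRBV12-01 and with TCRBV04-01, and as 1 in mouse 4, with TCRBV29-01, and was found in 50 and 51 libraries of other mice. Across the 145 large clones, 72 had a CDR3 that was found in at least 1 library of another mouse, and 20 had the same nucleotide rearrangement there. Such shares were not taken over all tumor rearrangements. The counts thus do not show whether large clones recurred between mice more or less often than others.

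The largest tumor clones could also be followed back to day 0. This comparison was added after the data were seen, and it takes the 20 largest endogenous rearrangements of each tumor, chosen from the tumor alone. Their summed share of endogenous blood templates on day 0 was 0.444, 0.153, 0.151 and 0.0401% in mice 2 to 5. On day 7 it was 2.42, 4.15, 2.91 and 5.62%, higher in 4 of 4 mice by 3.58 ± 1.57 percentage points (SD, exact sign-flip p = 0.125, unpaired exact permutation p = 0.0286). Day 0 blood held 4, 2, 5 and 1 of the 20 and day 7 blood 10, 19, 18 and 17. These counts are not at equal depth. Day 0 blood had 4953, 2621, 7304 and 4983 endogenous templates and day 7 blood 5877, 6235, 10699 and 5002. The 20 largest clones of another control tumor took at most 0.0510% of day 7 blood over 16 such pairs.

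**Figure D4:**
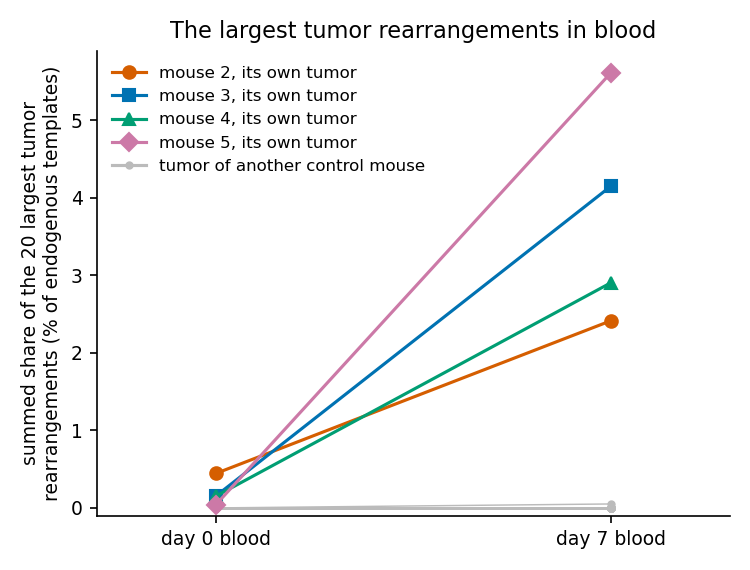
Summed share, in percent of endogenous templates, of the 20 largest tumor rearrangements in day 0 and day 7 blood. Colored lines follow the clones of the mouse's own tumor and grey lines those of the tumors of other control mice. Own clones sit at 2.42 to 5.62% on day 7, and clones of other tumors at or near 0 at both times.

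Segment use was compared both by templates, which weighs large clones, and with each rearrangement counted once. By templates, edgeR's quasi-likelihood test with the mouse as a block and Benjamini-Hochberg adjustment called 0 of 29 V segments higher in tumor (0.0%) and 6 lower (20.7%). TCRBV23-01 took 0.296, 0.237, 0.255 and 0.169% of tumor templates in mice 2 to 5 and 0.698, 0.770, 0.738 and 0.620% of blood templates (log2 fold change −1.58, SE 0.23, edgeR adjusted p = 0.0151). TCRBV03-01 took 2.00, 3.35, 4.46 and 3.62% against 7.38, 7.01, 8.18 and 7.52% (−1.22, edgeR adjusted p = 0.0403). TCRBV30-01, TCRBV26-01, TCRBV17-01 and TCRBV01-01 had log2 fold changes of −1.87, −1.11, −0.97 and −0.95, and all 6 segments were lower in 4 of 4 mice. Without mouse 5 none was called lower, and without mouse 2, 3 or 4 the counts were 2, 2 and 4. The median log2 fold change over all 29 segments was −0.67. With TMM factors, which moved that median by 0.79, or DESeq2's size factors, which moved it by 0.83, none of the 6 was called lower.

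The segments that filled the tumors differed between mice. TCRBV16-01, one of the 3 most used together with TCRBV05-01 and TCRBV13-02, held 33.8, 11.9, 4.19 and 2.33% of tumor templates, against 5.16 to 6.4% in blood. TCRBV05-01 held 12, 7.52, 20.6 and 4.99% in tumor and 5.61 to 7.78% in blood. TCRBV13-02 held 5.28 to 9.21% in tumor and 10.1 to 11.6% in blood, lower in 4 of 4 mice, but did not pass the test (log2 fold change −0.57, edgeR adjusted p = 0.325). Among 14 J segments, 0 were called higher in tumor (0.0%) and 1 lower (7.14%). This was TCRBJ01-06, with 0.860 to 1.90% in tumor and 2.06 to 2.3% in blood (log2 fold change −0.83, edgeR adjusted p = 0.0339), and the call was lost without the block, with TMM factors, with DESeq2 and without mouse 2, 3 or 4.

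With each rearrangement counted once, a different picture came out, and the tumors lay close to one another. Here 5 V segments were called higher in tumor (17.2%) and 5 lower (17.2%) by edgeR, and the segments named from this count were chosen after their values were seen. TCRBV12-01 made up 8.32, 8.15, 7.10 and 7.17% of tumor rearrangements in mice 2 to 5 and 5.12, 4.80, 4.45 and 4.32% of blood rearrangements (log2 fold change 0.72, SE 0.06, edgeR adjusted p = 2.22e-14). TCRBV12-02 made up 5.90, 5.47, 5.15 and 5.2% against 3.49, 3.34, 3.21 and 3.48% (0.69, SE 0.06, the same adjusted p in edgeR). Because edgeR pools the spread over all segments, its p is not bounded by the number of mice. The exact sign-flip test over the 4 pairs gave p = 0.125 for each of these 2 segments, the smallest it can give. TCRBV12-01 is the V segment of OT-1, whose CDR3 was left out of these counts.

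TCRBV31-01 had the lowest log2 fold change of those called lower, with 3.61, 3.24, 3.79 and 4.25% of tumor rearrangements and 6.14, 5.71, 5.66 and 5.56% in blood (log2 fold change −0.64, SE 0.07, edgeR adjusted p = 1.09e-11). TCRBV20-01, TCRBV02-01, TCRBV04-01 and TCRBV03-01 were also called lower, at −0.42, −0.41, −0.28 and −0.17. TCRBV17-01, TCRBV14-01 and the rare TCRBV10-01 were called higher. The last rests on very few rearrangements, 0.0424 to 0.118% in tumor and at most 0.0244% in blood. TCRBV17-01 was thus lower in tumor by templates and higher by rearrangements. Of the J segments, 2 were called higher (14.3%) and 3 lower (21.4%), led by TCRBJ02-01 at 12 to 14% in tumor and 9.14 to 11% in blood.

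The 2 TCRBV12 segments together were followed further, as an addition made after the data were seen. They held 14.2, 13.6, 12.3 and 12.4% of tumor rearrangements, 8.61, 8.14, 7.65 and 7.80% in day 7 blood and 8.05, 7.14, 7.09 and 6.84% in day 0 blood of mice 2 to 5. The tumor of mouse 1 had 12.8%. Tumor was higher than day 7 blood in 4 of 4 mice by 5.06 ± 0.56 percentage points (SD, exact sign-flip p = 0.125, unpaired exact permutation p = 0.0286). Among rearrangements of a single template the share was 13 to 16.7% in tumor and 7.27 to 8.80% in blood, and among those of 2 templates 9.83 to 13.4% and 7.84 to 9.06%. Among rearrangements with at least 3 templates tumor was higher in 1 of 4 mice, with a mean of 7.95% against 8.71% (exact sign-flip p = 0.875). Without rearrangements that use TCRBJ02-07, the J segment of OT-1, the gap was 4.66 points, and without those within 2 mismatches of OT-1 or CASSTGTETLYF it was 5.07. Among out-of-frame rearrangements, which make no receptor, tumor was also higher in 4 of 4 mice, by 1.29 ± 0.68 points (SD, exact sign-flip p = 0.125, unpaired exact permutation p = 0.114).

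**Figure D5:**
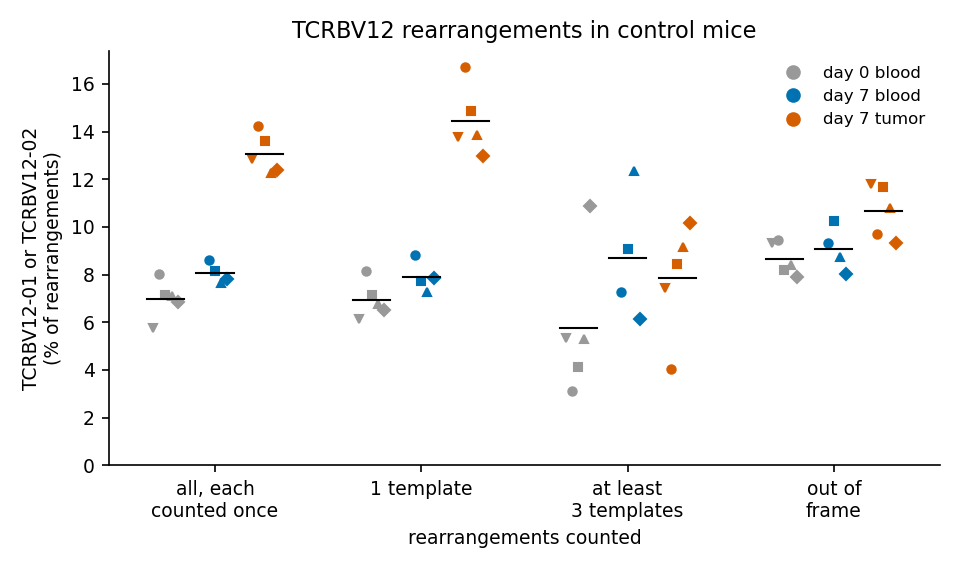
Share of rearrangements that use TCRBV12-01 or TCRBV12-02, in percent, with each rearrangement counted once, for all endogenous productive rearrangements, those of 1 template, those of at least 3 templates and out-of-frame ones. Points are libraries of day 0 blood (grey), day 7 blood (blue) and tumor (orange), a symbol is a mouse as in the plot of OT-1 share, and black lines are means, mouse 1 included where it has a library. Tumor lies apart from both bloods in the first 2 groups and overlaps them among rearrangements of at least 3 templates.

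By templates, mean CDR3 length, which shapes the loop over the peptide, varied more between tumors (SD 0.302) than between bloods (SD 0.0267). The mean length over templates was 13.3, 13.9, 13.6 and 13.3 amino acids in tumor and 13.9, 13.8, 13.8 and 13.8 in blood, shorter in tumor in 3 of 4 mice (exact sign-flip p = 0.25). The most frequent length was 14 in all 4 bloods and 12, 15, 13 and 13 in the tumors, in each case the length of the largest clone printed above. With each rearrangement counted once, the mean was 14.04, 14.02, 14.04 and 13.98 in tumor and 13.92, 13.89, 13.90 and 13.95 in blood, higher in tumor in 4 of 4 mice by 0.102 ± 0.053 (SD, exact sign-flip p = 0.125, unpaired exact permutation p = 0.0286). Without the 10 largest rearrangements of each library the template-weighted difference was 0.00496 amino acids.

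Hydrophobic residues at CDR3 positions 6 and 7 also went opposite ways by the 2 counts. By templates, 1.40, 1.69, 2.17 and 1.39% of tumor and 2.43, 2.89, 2.67 and 2.40% of blood carried such a pair, lower in tumor in 4 of 4 mice by 0.937 points on average (exact sign-flip p = 0.125, unpaired exact permutation p = 0.0286, or 0.0514 after adjustment over the 9 measures). By rearrangements, 4.03, 4.43, 3.49 and 3.58% of tumor and 2.53, 2.68, 2.68 and 2.53% of blood did, higher in tumor in 4 of 4 mice by 1.27 ± 0.42 points (SD, exact sign-flip p = 0.125, unpaired exact permutation p = 0.0286). The other joint features varied more between tumors than between bloods. Templates without any inserted base made up 3.65, 9.26, 5.46 and 4.89% of tumor and 7.52 to 9.04% of blood, lower in 3 of 4 mice (exact sign-flip p = 0.25). TCRBD01 was assigned to 20.3, 43.3, 52.6 and 32.2% of tumor templates and to 44.1 to 47.9% in blood.

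CDR3s found in several mice gave the only clone-level test with animals as replicates. Of 91 CDR3s found in at least 3 of the 8 libraries with 10 or more templates in all, edgeR's quasi-likelihood test called 0 higher and 0 lower in tumor (0.0%), with 2 higher and 0 lower at an unadjusted p under 0.05 and 0 calls by DESeq2. On simulated tables of the same 91 CDR3s, 1 of 90 raised 8-fold was called (1.11%), so a change of that size would mostly be missed there. Many CDR3s were raised at once in these tables, and a few raised alone were not simulated. Without mouse 3, 44 CDR3s met the same minimum and 2 of them were called higher. These were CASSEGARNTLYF and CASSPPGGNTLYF, named here after their values were seen, which are among the leading clones of mice 4 and 2.

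The control arm was last set beside the treated arms, all 3 measured as tumor against day 7 blood of the same mouse, with 6 comparisons that share the control mice. The mean log2 OT-1 ratio of 3.06 in control mice, from 2.38 to 3.36, stood beside 2.92, from 2.43 to 3.32, in 5 mice at 2.5e8 (exact permutation p = 0.571). With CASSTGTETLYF kept in the denominator, the log2 ratio of control mice minus that at 2.5e8 was −1.06 (exact permutation p = 0.0476, unadjusted), and in percentage points the difference was −13.1 (exact permutation p = 0.310). In 5 mice at 1e9 the log2 ratio was 0.32, from −0.02 to 0.78 (exact permutation p = 0.00794, adjusted 0.0317). OT-1 already made up 48.1 to 79.5% of day 7 blood there, so the log2 ratio could not exceed 0.33 to 1.05, below every control value, and the blood shares alone fixed the outcome of this test. In percentage points the tumor excess of control mice over the 1e9 arm was 8.04, which did not pass (exact permutation p = 0.310).

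Shared rearrangements, at a common depth of 482 templates, averaged 10.5 ± 2.7 in control mice, 18.5 ± 3.5 at 2.5e8 and 24.7 ± 5.0 at 1e9 (SD, exact permutation p = 0.0159 for each arm against control, adjusted 0.0317). At this depth control mice spanned 7.51 to 13 and the 2.5e8 arm 13.5 to 22.8. At 2482 templates, the smallest library of these 2 arms, the means were 40.5 and 60.3 (exact permutation p = 0.0714). The gain in clonality from blood to tumor was 0.206 in control mice, 0.206 at 2.5e8 (exact permutation p = 0.984) and 0.130 at 1e9 (exact permutation p = 0.0952, adjusted 0.143).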

How the data were processed

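The deposited tables, per the labels and methods, came from immunoSEQ bias-controlled multiplex PCR of genomic DNA, with sequences collapsed and filtered by the authors' provider in Analyzer v3.0. Each row is a nucleotide rearrangement with its deposited template count, and the authors' other columns of frequencies were not used. The genome build was not given in the sources used here. Only in-frame rows were used, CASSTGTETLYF was left out, and at most 0.301% of endogenous templates lacked a resolved V or J segment. Tumor and blood with 1 mouse number in the labels came from 1 animal and form a pair, and the separate mice are the replicates.

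Shares carry 95% Wilson intervals, and a count of 0 allows 3 templates. Both cover counting error only. Equal depth was the mean of 100 random draws or its expectation. Paired measures were tested by exact two-sided sign-flip tests (at least 0.125 with 4 pairs) and unpaired exact permutation tests (at least 0.0286), shared rearrangements over all pairings, and clones by Fisher's exact test. Segment and CDR3 counts were tested with edgeR 4.0.16 (R 4.3.3), with library sizes as totals, and with DESeq2 1.42.0 as an alternative. Other steps used Python 3.11.15 with scipy 1.17.1. The Fisher and edgeR tests were tested on simulated data, where 52.5% of V segments changed 4-fold and 9.79% of those changed 2-fold were called.

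Per mouse, the named clones were the 3 largest shared and the 3 largest tumor-only ones and the clone called lower with most blood templates. Named segments were those called and the 3 most used. These rules, the members and all lists were chosen with earlier results of these data known. No 2 of the 81 libraries were identical.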

Additional observations from a re-analysis of the deposited data

Results flagged for a closer look

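Of 95 groups of 4 or 5 values examined for a sample far from the others, 8 held one, and chance alone gives about 1 in 20. The OT-1 share in day 7 blood of control mouse 2 was 7.58%, the nearest other mouse having 2.53%, and this value appeared both with and without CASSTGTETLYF in the denominator because that blood held none. The gain in clonality of control mouse 2 at equal depth was 0.336 against 0.168 in the nearest mouse. In the 1e9 arm, mouse 2 had a gain of 0.0452, the nearest having 0.142.

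The others were segment shares. TCRBV13-02 made up 10.9% of rearrangements in the blood of mouse 4 (nearest 11.3%), and TCRBV16-01 4.89% of those in the tumor of mouse 3 (nearest 5.51%). In the blood of mouse 5, TCRBV23-01 made up 0.489% of rearrangements (nearest 0.773%) and TCRBV26-01 3.62% of templates (nearest 2.92%).

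Differences between arms were found for 3 comparisons. The log2 OT-1 ratio of tumor to blood was 2.74 higher in control mice than in the 1e9 arm. Blood OT-1 in that arm capped its ratio below every control value, and in percentage points the difference was 8.04 (exact permutation p = 0.310). The number of shared rearrangements at equal depth differed by −7.95 between control mice and the 2.5e8 arm and by −14.2 between control mice and the 1e9 arm, lower in control mice both times.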

How the results depend on the processing

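The pairing limits the paired tests, which cannot pass with 4 mice. Without the replicate block, the unpaired exact test passed before adjustment (0.0514 over the 9 measures, which the last 2 named here are not among) for the OT-1 log2 ratio (3.06, and 2.98 with the tumor of mouse 1), clonality (0.291), rearrangements at equal depth (−2344), the 10 largest (44.1 points), hydrophobic pairs (−0.937), the followed clones (3.58) and TCRBV12 (5.06). Leaving out each mouse gave 2.96 to 3.28, 0.251 to 0.313, −2428 to −2301, 38.8 to 47.5, −1.08 to −0.849, 2.91 to 4.11 and 4.88 to 5.23. The mean excess of rearrangements shared within a mouse over those shared with other mice, 111.7, was then 106 to 118, and 3 mice cannot pass. CDR3 length turned from −0.274 to 0.102 with each rearrangement once, with or without the block, and to 0.00496 without the 10 largest. Hydrophobic pairs turned to 1.27 with each rearrangement once, with or without the block. Inserted bases, 0.125 more per template in tumor, turned to −0.104 without mouse 4 (−0.104 to 0.361 without 1 mouse). TCRBV12 turned to −0.762 among rearrangements of at least 3 templates.

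Clones called higher numbered 172 with no minimum, where the set tested was far larger, and 156 to 316 without 1 mouse. Clones called lower numbered 4 at a minimum of 10 templates, 3 with none, 7 at an adjusted p under 0.01, 9 at equal depth, and 7 to 13 without 1 mouse (9 without mouse 3, 7 without mouse 4). Tumor-only clones numbered 150 at 0.1% and 9 at 0.5%, with mean sums of 9.13 and 2.69%, and 38 (without mouse 3) to 50 without 1 mouse, with sums of 5.82 to 6.49%. V segments called higher numbered 1 with DESeq2 and 5 with each rearrangement once, and those lower 0 with DESeq2, 0 with TMM factors and 0 to 4 without 1 mouse. J segments called higher numbered 1 with DESeq2, 2 with each rearrangement once and 0 to 1 without 1 mouse, and those lower 0 without the block, 2 with DESeq2, 0 with TMM factors, 3 with each rearrangement once and 0 to 1 without 1 mouse. CDR3s called higher numbered 0 to 2 without 1 mouse, of 38 to 65 tested. With each rearrangement once, the log2 fold change turned for TCRBJ01-06 (0.17), TCRBV13-02 (0.073), TCRBV16-01 (−0.070) and TCRBV17-01 (0.34). TCRBV13-02 also turned with DESeq2 (0.26) and TMM factors (0.23), and TCRBV16-01 without mouse 2 (−0.15, and up to 1.10 without mouse 5).

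Between arms, mice share only a number. With that number as a block, no difference could pass: OT-1 against 1e9 was 2.72, and shared rearrangements were −7.45 (2.5e8) and −14.4 (1e9). OT-1 against 1e9 did not pass in percentage points (8.04), nor shared rearrangements against 2.5e8 at their own depth (−19.8). OT-1 against 2.5e8 was −1.06 with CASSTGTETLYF kept (exact permutation p = 0.0476) and −13.1 in percentage points. The clonality difference against 2.5e8 turned without control mouse 3, 4 or 5 (−0.0445 to 0.0177 over all omissions). The followed clones, TCRBV12, the unblocked count of each rearrangement once and the own-depth comparison were added after the data were seen. Causes were not tested. The depth of blood limits which clones can be called absent.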
